A study of Mus musculus with 14 samples.

Results

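UMI-4C contacts were followed from 3 baits on mouse chromosome 9 to fragment ends on the same chromosome but outside the stretch from 90.6 to 110.6 Mb (GRCm38), that is, about 10 Mb or more from the baits. The bait was the fragment end listed with the most partners in each file. Its partner ends on chromosome 9 that ended at or below 90.6 Mb, or beyond 110.6 Mb, were taken. They numbered 28873 distinct fragment ends with 40267 UMIs, of 116782 partner ends with 282295 UMIs in all 14 libraries. Within a library, a UMI stands for 1 ligated molecule, counted once however often PCR copied it. The UMI totals are sums over libraries, and 3 pairs of libraries shared 87.0% to 90.4% of the distant ends of the smaller library. UMIs at shared ends were counted in each library, so a molecule present in both libraries of a pair would enter the totals more than once.

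The libraries came from untreated embryonic stem cells (ESC) of the mouse, kept in 2i-LIF, and from untreated neural stem cells (NSC) that were derived from ES cells and kept in EGF-FGF. Nanog bait 1 had 4 ESC and 3 NSC libraries, Nanog bait 2 had 3 ESC libraries and 1 NSC library, and the CTCF bait had 2 ESC libraries and 1 NSC library. The labels name no genotype, cell line, passage or sex, and do not say that replicates came from separate cultures, so the p-values measure only the spread between these samples. The files hold contacts and no expression, so the cell types could not be checked against marker genes.

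In UMI-4C, chromatin is crosslinked, cut and ligated in place, and the fragments joined to 1 chosen site are sequenced. Contacts become rarer with distance along the chromosome, and those many megabases away report mainly which stretches of a chromosome tend to lie near each other, such as gene-rich with gene-rich. Mouse chromosome 9 has its centromere at the low end of its coordinates, so positions below 90.6 Mb are called the centromeric side and those above 110.6 Mb the telomeric side. Both Nanog baits lie in Stag1, which encodes a subunit of cohesin, the complex that extrudes chromatin loops, and the CTCF bait lies outside it.

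The fragment ends lie at GATC, the letters at which the chromatin was cut. The sequence around each bait site (GRCm38, plus strand, 30 bases, GATC in capitals) shows where the contacts start. The word Nanog in the names of both intronic baits is not explained in the labels, and these baits do not lie at the Nanog gene.
Nanog bait 1, in an intron of Stag1, chr9:100619974-100620003: caagtactgcgctGATCcacttcctgttgg
Nanog bait 2, in an intron of Stag1, chr9:100641684-100641713: ggttggactgtagGATCtaaaacacaaaaa
CTCF bait, intergenic, 2342 bp from Il20rb, chr9:100455363-100455392: cagcatagactttGATCtgcagccatgggt

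Single distant fragment ends recurred little. Of the 28873 ends, 90.7% were listed in 1 of the 11 independent samples (defined below), 8.77% in 2, 143 ends in 3, 11 ends in 4 and 2 ends in 5, the most found. The sites of both ends listed in 5 samples, and of the 3 with the most UMIs among those listed in 4, are shown because they recurred most. Samples of both cell types that are linked (defined below) count separately here, and each of the 5 ends was listed in at least 1 such pair. By the annotation, 4 of them lie in introns and 1 between genes.
Site in an intron of Fbxo9, chr9:78098827-78098856: tcccaagtgttcaGATCaaaggtgtgcacc
Site between genes, 14997 bp from the pseudogene Gm7780, chr9:114663017-114663046: tatatgttgcttaGATCcaaacgtgggtct
Site in an intron of Scn10a, chr9:119662198-119662227: acgcctatgctcaGATCagaagtggtgtct
Site in an intron of Tln2, chr9:67540117-67540146: cattaagagcccaGATCcccttccctgcct
Site in an intron of Rora, chr9:68679602-68679631: agctgctcctgaaGATCattccactactct

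The end in Fbxo9, which encodes a subunit of a ubiquitin ligase, had 7 UMIs over 3 ESC and 2 NSC samples from all 3 baits. Repeats fill 80.8% of the 104 bases around its site, as marked in the genome sequence. The end in Scn10a, a voltage-gated sodium channel gene, had 9 UMIs over 3 ESC samples and 1 NSC sample. Of these, 4 came from a single library, ESC replicate 4 of Nanog bait 1, and 1 from ESC replicate 1, which shares most of its ends. The ends in Tln2, which encodes a talin, and in Rora, which encodes a nuclear receptor, had 5 UMIs each. For both ends, 2 of the 5 came from ESC replicates 1 and 4 of Nanog bait 1. No single library gave any distant end more than 8 UMIs, and 97.8% to 99.3% of the distant ends in a library carried 1 UMI. The data were therefore read as sums over windows.

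Libraries held 7172 to 51412 UMIs in all and 682 to 6585 UMIs beyond 10 Mb, which occupied 0.134% to 1.27% of the 505210 distant GATC ends. Within Nanog bait 1, ESC replicate 1 shared most of its distant ends with ESC replicate 4, ESC replicate 2 with ESC replicate 3, and NSC replicate 1 with NSC replicate 3 (87.0% to 90.4% of the ends of the smaller library). Each such pair was averaged and counted as 1 sample, leaving 11 independent samples (7 ESC, 4 NSC). A further 9 pairs of libraries shared 1.92% to 12.9% of their ends on other chromosomes and are called linked. They shared 0.889% to 14.7% of their distant ends. Apart from ESC replicates 1 and 2 of the CTCF bait, each linked pair joined an ESC with an NSC library of the same bait. Every NSC sample had such a link, so the samples called independent are not fully so across cell types. The tests ignore the links except where stated. Per GATC end, distant chromosome 9 held 10.4 to 21.0 times as many UMIs as the other chromosomes, so a uniform background at the rate of the other chromosomes would make up 4.77% to 9.65% of the distant UMIs.

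Contact density rose towards the baits on the centromeric side and was higher still on the telomeric side. Density is given as UMIs per GATC end relative to the mean of all distant ends in the sample, first averaged over the samples of a bait and then over the baits. On the centromeric side, distances count from 100.6 Mb, the midpoint between the borders. At 90 to 98 Mb from the midpoint, next to the centromere, the density was 0.171 in ESC and 0.264 in NSC. At 50 to 60 Mb it was 0.809 in ESC and 0.981 in NSC. It was highest at 20 to 30 Mb, with 1.70 in ESC and 1.49 in NSC, and lower again at 10 to 20 Mb, with 1.30 and 1.23.

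**Figure D1:**
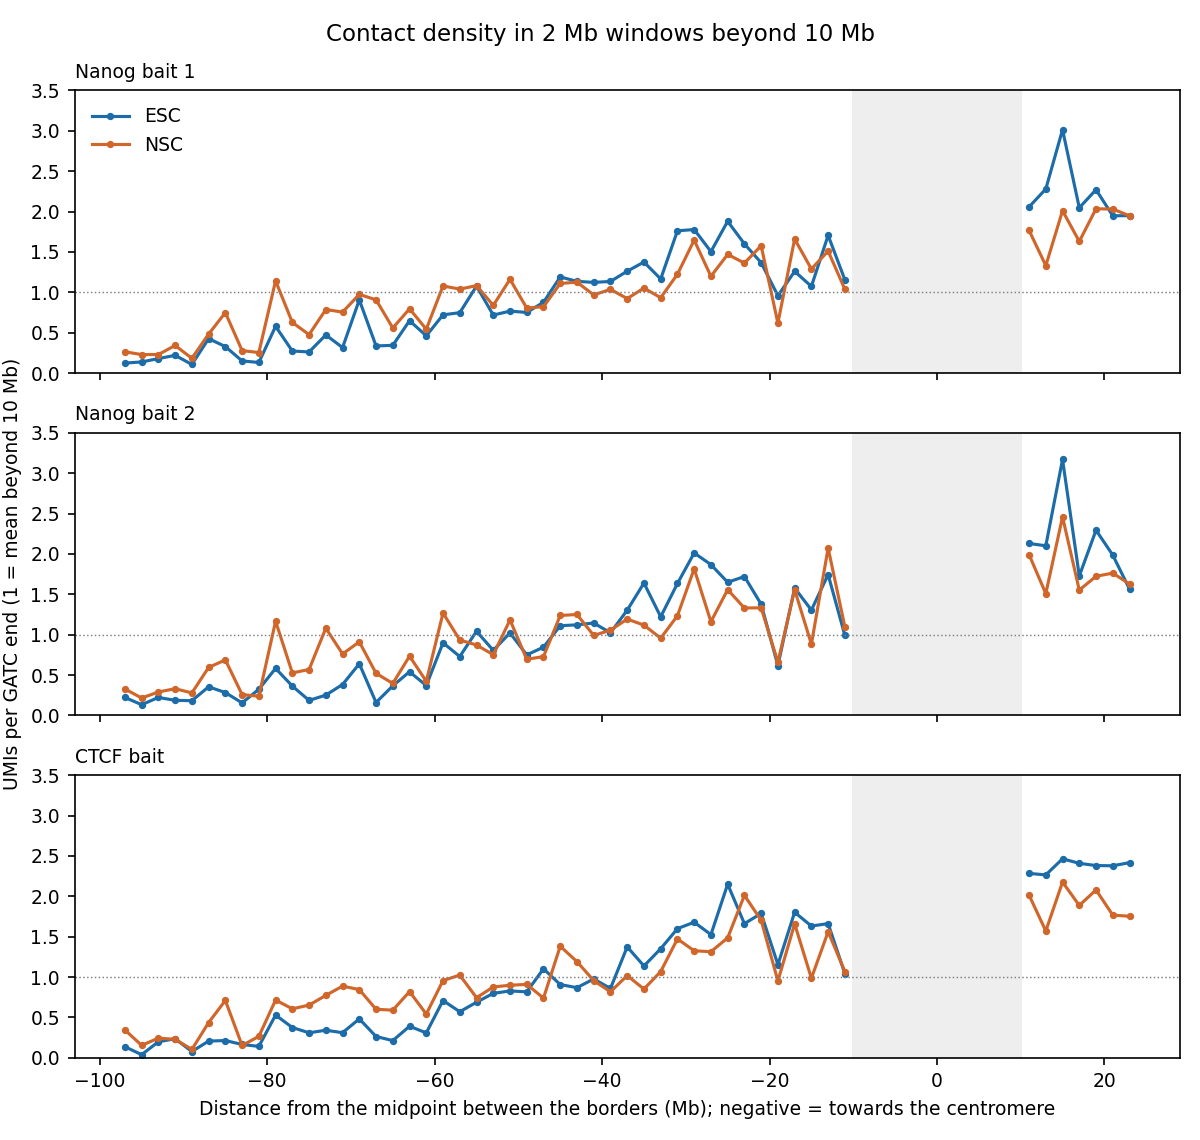
UMIs per GATC end in 2 Mb windows (y axis, linear, 1 is the mean of all distant ends in a sample) against the distance of the window from the midpoint between the borders in Mb (x axis), for each bait, as the mean of the independent ESC (blue) and NSC (orange) samples; the grey band was not analysed here. ESC lie below NSC in most windows at the centromeric end and above NSC in most telomeric windows.

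At equal distance the sides differed. Between 10 and 24 Mb from the midpoint, the telomeric side held 2.25 times the mean density in ESC and the centromeric side 1.38 times. In NSC the densities were 1.84 and 1.32. The ratio of the telomeric to the centromeric density was above 1 in all 11 samples. It ranged from 1.45 to 1.81 in the ESC samples and from 1.34 to 1.48 in the NSC samples, and within each bait the ESC samples lay above the NSC samples.

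The densest windows were on the telomeric side in both cell types. The window from 114.6 to 116.6 Mb, which holds the starts of Tgfbr2, a receptor for TGF-beta, and of Stt3b, a subunit of the oligosaccharyltransferase, was the densest in ESC, at 2.88 times the mean, and in NSC, at 2.22 times. It was followed in both by the window from 118.6 to 120.6 Mb, at 2.32 times in ESC and 1.95 times in NSC. The remaining windows of the densest 5 were 112.6 to 114.6, 110.6 to 112.6 and 120.6 to 122.6 Mb in ESC, at 2.22, 2.16 and 2.10 times the mean. In NSC they were 110.6 to 112.6, 120.6 to 122.6 and 122.6 to 124.6 Mb, at 1.93, 1.85 and 1.78 times. By contrast, the window next to the centromeric border, 88.6 to 90.6 Mb, was at 1.06 in ESC and 1.07 in NSC, and the first window of the chromosome, 2.6 to 4.6 Mb, at 0.162 and 0.313.

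The profile was largely shared between baits and cell types. Across the 51 windows of 2 Mb, the densities in ESC and NSC from the same bait correlated at Pearson r = 0.900 to 0.921, and between baits within a cell type at r = 0.912 to 0.973. These are descriptions across windows, which share libraries and base composition and are not independent. Density followed GC content (Spearman's rho 0.494 in ESC and 0.561 in NSC over the 51 windows) more than the number of protein-coding genes (0.195 and 0.209).

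The first comparison asked how much of the chromosome's contacts lay beyond 10 Mb in each cell type. As a share of the chromosome 9 UMIs outside 10 kb of the bait, distant contacts were 7.38 percentage points lower in ESC than in NSC (mean of the baits 17.3% and 24.7%). Nanog bait 1 gave 23.6% in ESC (replicates 1 and 4 averaged) and 15.3% (replicates 2 and 3 averaged). In NSC it gave 29.3% (replicates 1 and 3 averaged) and 31.8% (replicate 2). Nanog bait 2 gave 23.2%, 15.6% and 15.9% in ESC replicates 1, 2 and 3 and 25.7% in NSC. The CTCF bait gave 17.01% and 11.7% in ESC replicates 1 and 2 and 18.0% in NSC. Every ESC sample lay below every NSC sample of its bait, but ESC samples of the same bait differed by up to 8.29 points (Nanog bait 1). ESC libraries of 7172 to 13775 UMIs gave 11.7% to 15.9%, and those of 21866 to 51412 UMIs gave 17.01% to 23.7%. NSC libraries held 19410 to 24687 UMIs. The deep ESC samples differed from their linked NSC samples by -5.72 (Nanog bait 1), -2.49 (Nanog bait 2) and -0.969 points (CTCF bait). The shallow ESC sample of Nanog bait 1 differed by -16.5 points. The part played by depth was not tested.

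A two-sided exact permutation test of the labels within baits gave p = 0.0417 (72 labelings, smallest p possible 0.0139), and 0.0694 after adjustment over the 5 shares tested. For Nanog bait 1 alone the exact permutation test cannot go below p = 0.333, which it gave for all 5 shares. With the other chromosomes in the denominator the difference was -2.66 points, with exact permutation p = 0.0694. As a share of the UMIs beyond 1 Mb the difference was -0.404 points, with exact permutation p = 0.778. Contacts from 1 Mb to the 10 Mb borders were also higher in NSC, by 7.42, 5.73 and 7.97 points for Nanog bait 1, Nanog bait 2 and the CTCF bait, with no overlap between the samples of either cell type.

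**Figure D2:**
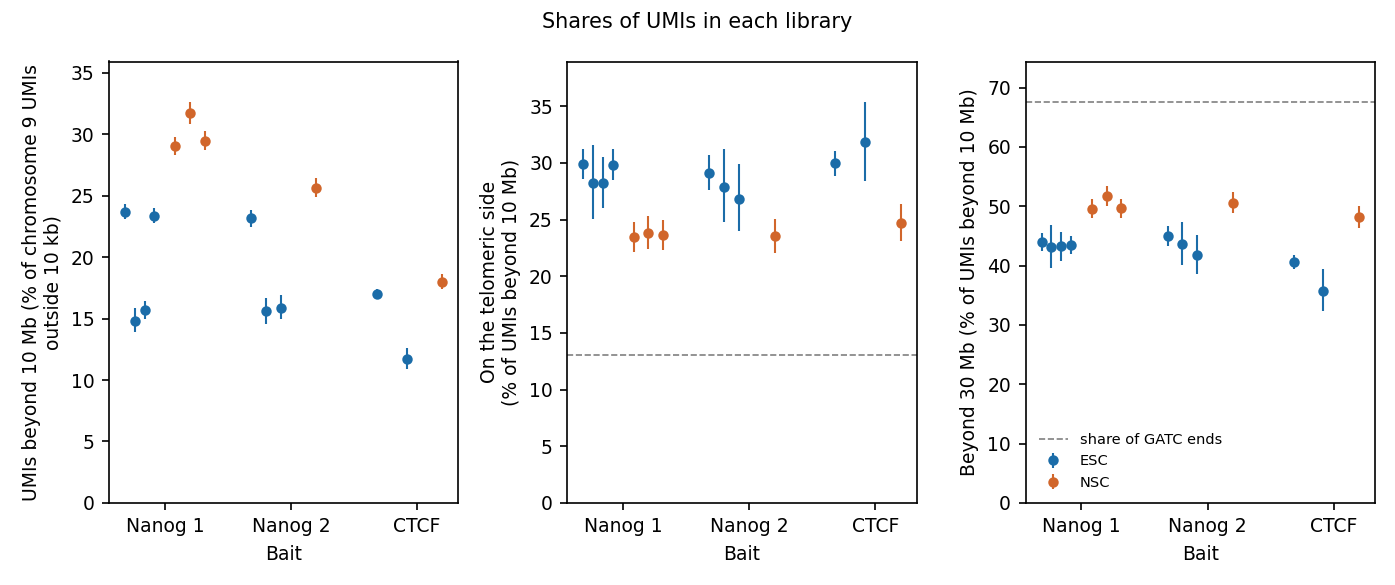
Shares of UMIs (y axes, percent) for each library by bait (x axis), ESC in blue and NSC in orange, with bars for the 95% Wilson interval, which covers counting error only; the dashed line is the share of GATC ends. Within each bait all ESC libraries lie below the NSC libraries in the left and right panels and above them in the middle panel.

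The second comparison asked where along the chromosome the distant contacts lay. The telomeric share, the percentage of distant UMIs beyond 110.6 Mb, was 29.3% in ESC and 23.96% in NSC as means of the baits, against 13.03% of the GATC ends. ESC samples gave 29.9% and 28.2% for Nanog bait 1, 29.1%, 27.9% and 26.8% for Nanog bait 2 and 29.9% and 31.8% for the CTCF bait. NSC samples gave 23.5% and 23.8%, 23.5% and 24.7%. The lowest ESC sample of any bait was above the highest NSC sample of any bait. The difference of 5.33 points had exact permutation p = 0.0139, the smallest possible, and 0.0347 after adjustment over the 5 shares.

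The share beyond 30 Mb, the percentage of distant UMIs at or below 70.6 Mb, was lower in ESC, 41.7% against 49.8%, with 67.6% of the GATC ends lying there. The ESC samples gave 43.7% and 43.2% for Nanog bait 1, 45.0%, 43.7% and 41.8% for Nanog bait 2 and 40.6% and 35.8% for the CTCF bait. The NSC samples gave 49.6% and 51.7%, 50.6% and 48.2%. Again no ESC sample overlapped any NSC sample. The difference of -8.11 points had exact permutation p = 0.0139, and 0.0347 after adjustment. It was not only the counterpart of the telomeric share, because within the centromeric side alone the percentage beyond 30 Mb was also lower in ESC (58.9%) than in NSC (65.5%), without overlap in any bait. Among linked libraries, which share some fragment ends, the telomeric share was higher in ESC by 4.36 to 6.34 points and the share beyond 30 Mb changed by -8.49 to -5.59 points.

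Windows of 2 Mb were then tested across the whole chromosome with the quasi-likelihood test of edgeR, all baits together, with the chromosome 9 UMIs outside 10 kb as library size. Of the 51 distant windows, 25 (49.0%) were higher in NSC at an adjusted p under 0.05. Over all 61 windows of the chromosome tested, which include these, 45.9% were higher in NSC, and of the 10 windows within the borders 3 were. No distant window was called higher in ESC by this test, none at an unadjusted p under 0.05 either, and 1 had a log2 fold change (ESC over NSC) above 0. DESeq2, with its own size factors, called 6 distant windows higher in ESC and 11 higher in NSC.

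All 25 called windows were on the centromeric side, and 19 of them were among the 21 windows that end at or below 44.6 Mb. Without NSC replicate 2 of Nanog bait 1 the test called 15 distant windows, and without the NSC library of Nanog bait 2 it called 13. With each fragment end counted once it called 5, all of them among the 25.

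The largest change was in the window from 32.6 to 34.6 Mb, which holds the starts of Ets1, a transcription factor, and Kirrel3, an adhesion molecule of the nervous system. It held 0.542% and 0.766% of the distant UMIs in the ESC samples of Nanog bait 1 against 1.68% and 1.85% in the NSC samples. For Nanog bait 2 it held 0.682%, 0.136% and 0.119% in ESC, the last 2 from 1 UMI each, and 1.02% in NSC. For the CTCF bait it held 0.440% and 0.587% in ESC and 1.17% in NSC. Every NSC sample was above every ESC sample. The log2 fold change was -1.78 with chromosome 9 UMIs as library size (SE 0.30, edgeR adjusted p = 3.35e-07) and -1.38 with the distant UMIs, the scale of these shares (SE 0.20, adjusted p = 1.27e-09).

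The window from 26.6 to 28.6 Mb, which holds the start of Opcml, an IgLON adhesion molecule of neurons, followed with a log2 fold change of -1.66 (SE 0.28, edgeR adjusted p = 3.35e-07), or -1.25 (SE 0.18, adjusted p = 1.33e-09) relative to the distant UMIs. Its share of distant UMIs ran from 0.272% to 1.11% over the ESC samples and from 1.44% to 2.10% over the NSC samples, without overlap. The next window, 28.6 to 30.6 Mb, with the start of Ntm, another IgLON gene, changed by -1.46 (SE 0.29, adjusted p = 8.96e-06), or -1.0 (SE 0.18, adjusted p = 1.18e-06) relative to the distant UMIs. Its share ran from 0.293% to 0.950% in ESC and from 1.10% to 1.82% in NSC. The windows from 14.6 to 16.6 Mb, with the start of the cadherin gene Fat3, and from 24.6 to 26.6 Mb, with that of the heart transcription factor gene Tbx20, changed by -1.42 and -1.40. The window at the centromeric end of the chromosome, 2.6 to 4.6 Mb, was also higher in NSC (log2 fold change -1.09, SE 0.35, adjusted p = 0.00709). The windows at both 10 Mb borders and the last telomeric window did not pass the test (adjusted p = 0.193 to 0.226).

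**Figure D3:**
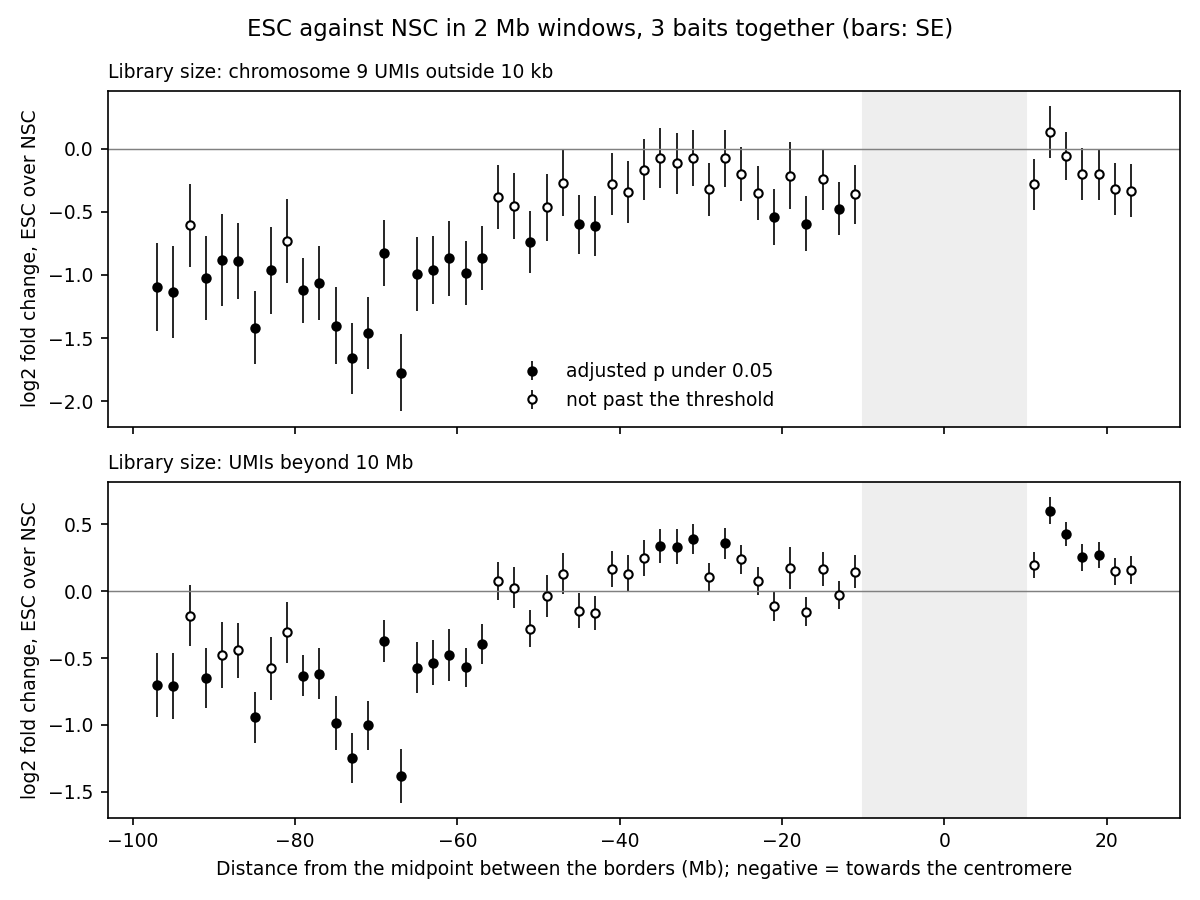
log2 fold change, ESC over NSC (y axis, bars are SE), of 2 Mb windows against their distance from the midpoint in Mb (x axis), with 2 library sizes: chromosome 9 UMIs outside 10 kb (top) and UMIs beyond 10 Mb (bottom). Filled points passed an adjusted p under 0.05; all 25 filled points in the top panel are below 0, and the bottom panel has 16 below and 8 above.

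When the UMIs beyond 10 Mb served as library size, so that only the distribution among distant windows was compared, 16 distant windows (31.4%) were higher in NSC and 8 (15.7%) in ESC, where 26.2% and 21.3% of all 61 windows were. The median log2 fold change of the distant windows moved from -0.54 to -0.11. With TMM factors 18 were higher in NSC and 8 in ESC. All 16 windows higher in NSC were among the 25 and lay at or below 44.6 Mb. Of the 8 higher in ESC, 4 were telomeric and 4 lay between 64.6 and 74.6 Mb.

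The largest change towards ESC on this scale was in the window from 112.6 to 114.6 Mb. It holds the starts of 12 protein-coding genes. Among them are Trim71, a regulator of RNA in early embryos and stem cells, and Clasp2, which stabilises microtubules. Within 500 kb of the start of Trim71, the density was higher in ESC for both Nanog baits. For the CTCF bait it was lower in ESC (1.85 and 1.86, against 2.18 in NSC). The share of distant UMIs in the whole window was 4.28% and 4.53% in the ESC samples of Nanog bait 1 against 2.47% and 2.67% in NSC. For Nanog bait 2 the values were 3.94%, 4.08% and 4.16% in ESC against 2.92% in NSC, and for the CTCF bait 4.21% and 4.55% against 3.03%. ESC and NSC did not overlap, and the log2 fold change was 0.60 (SE 0.10, edgeR adjusted p = 1.56e-07). With the chromosome 9 UMIs as library size it was 0.13 (adjusted p = 0.579).

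The window from 114.6 to 116.6 Mb followed, at a log2 fold change of 0.43 (SE 0.09, edgeR adjusted p = 1.93e-05). On the centromeric side, 68.6 to 70.6 Mb changed by 0.39, 72.6 to 74.6 Mb by 0.36 and 64.6 to 66.6 Mb by 0.34. The last of these 3 holds 35 protein-coding gene starts. These 5 windows were higher in ESC in each of the 3 baits relative to the distant UMIs, but 4 of them had a log2 fold change below 0 with the chromosome 9 UMIs as library size.

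Nanog bait 1, the only bait with 2 independent samples of each cell type, was also tested alone. On the chromosome 9 scale 12 distant windows (23.5%) were higher in NSC, against 19.7% of all 61 windows. All 12 lay at or below 44.6 Mb, and 11 of them were among the 25 found with all baits. With linked libraries as a block, an alternative chosen after seeing the data, none was called (edgeR, 13 at an unadjusted p under 0.05), and none without NSC replicate 2 (edgeR, 7 at an unadjusted p under 0.05). DESeq2 called 1. With the library ESC replicate 3 or ESC replicate 4 left out, 4 and 5 were called.

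Summed over the stretch, the windows up to 44.6 Mb held 16.3% and 15.1% of the distant UMIs in the ESC samples of Nanog bait 1 and 24.8% and 25.8% in the NSC samples. Nanog bait 2 gave 16.5%, 15.9% and 12.8% in ESC and 24.9% in NSC, and the CTCF bait 15.0% and 9.82% in ESC and 23.2% in NSC. The mean of the baits was 14.4% in ESC and 24.4% in NSC, for 42.4% of the distant GATC ends. The limit of 44.6 Mb was drawn after the window values were seen, so no test is given. The remaining centromeric stretch, 44.6 to 90.6 Mb, held 56.3% in ESC and 51.6% in NSC.

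**Figure D4:**
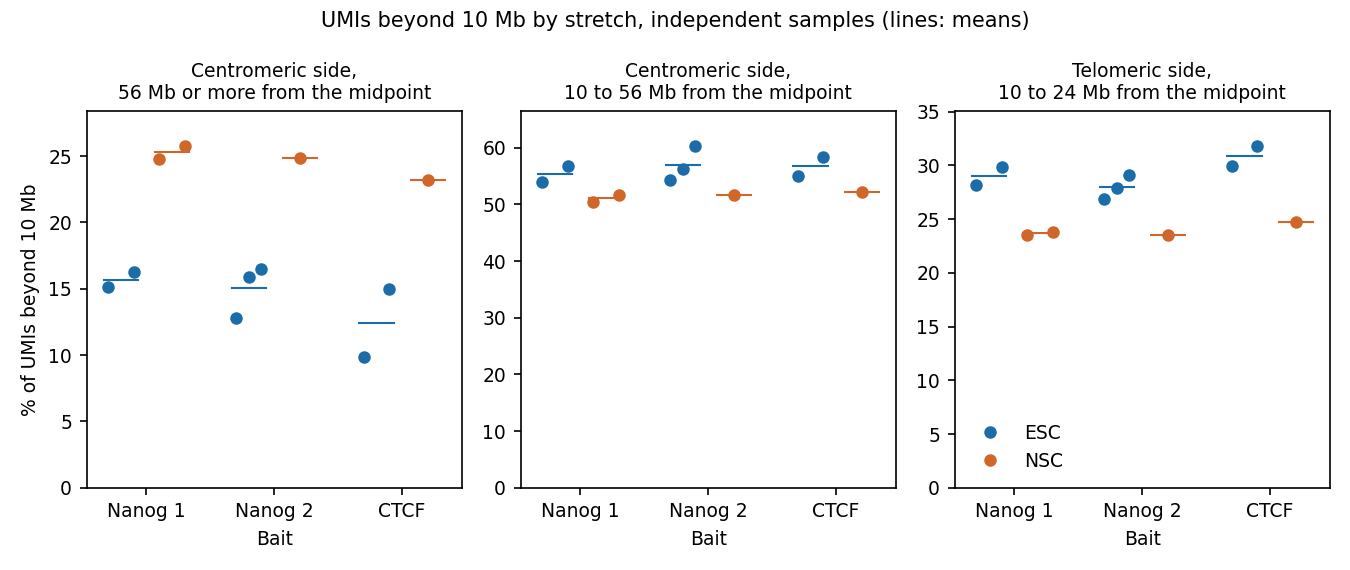
Percent of the UMIs beyond 10 Mb (y axes) in 3 stretches of the chromosome, by bait (x axis), with 1 point per independent sample and lines for the means, ESC in blue and NSC in orange. At 56 Mb or more from the midpoint the ESC samples sit between 9.82% and 16.5% and the NSC samples between 23.2% and 25.8%.

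The level on other chromosomes is set beside this. The distant density over that of the other chromosomes was lower in NSC for every bait (ESC minus NSC 4.07, 2.81 and 4.97). In the stretch up to 44.6 Mb, however, the density over that of the other chromosomes was higher in NSC, 6.19 to 7.16 in the NSC samples against 4.35 to 5.83 in the ESC samples. After a uniform background was subtracted, the stretch held 12.4% of the distant UMIs in ESC and 22.7% in NSC. On the telomeric side the density over the other chromosomes was 24.8 to 51.2 in ESC and 19.0 to 24.8 in NSC.

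Windows of 1 Mb with more than the median number of protein-coding genes (7) were called gene-dense. They held 52.6% of the distant UMIs in ESC and 50.7% in NSC as means of the baits, against 46.0% of the GATC ends, and all 14 libraries were above that share of ends. Nanog bait 1 gave 55.3% and 53.99% in ESC and 52.1% and 51.4% in NSC. Nanog bait 2 gave 53.8%, 52.9% and 55.7% in ESC and 49.6% in NSC. The CTCF bait gave 50.7% and 47.5% in ESC and 50.6% in NSC, where the samples overlapped. The difference of 1.95 points did not pass the test (exact permutation p = 0.153, adjusted 0.181). It turned to -0.469 points with windows of 2 Mb and was 2.53 points, with exact permutation p = 0.0417, when olfactory receptor genes were not counted.

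Olfactory receptor genes, a large family of receptors expressed in the nose and silent in most other cells, lie in clusters on this chromosome. All 132 of those beyond 10 Mb fell in 5 windows, from 18.6 to 20.6 Mb and from 37.6 to 40.6 Mb. These windows hold 5.34% of the distant GATC ends and held 0.587% to 2.47% of the distant UMIs in the 14 libraries, fewer than their share of ends in every library. They lie in the sparse stretch up to 44.6 Mb, which as a whole held 14.4% in ESC and 24.4% in NSC for 42.4% of the ends. In windows of 2 Mb, that from 18.6 to 20.6 Mb was at 0.199 times the mean density in ESC and 0.253 in NSC. Its neighbours without olfactory receptor genes were at 0.157 and 0.230 before it and at 0.564 and 1.01 after it. The windows from 36.6 to 38.6 and from 38.6 to 40.6 Mb were at 0.527 and 0.380 in ESC and at 0.784 and 0.503 in NSC. Their neighbours without such genes were at 0.308 and 0.515 (ESC and NSC) before them and at 0.777 and 1.10 after them. At both places the neighbour after the olfactory windows was denser than they were and the one before was sparser, except that in NSC the window from 38.6 to 40.6 Mb was below both neighbours. Whether the olfactory windows differ from the stretch around them was not tested. For the 5 olfactory windows, the means of the baits were 1.57% in ESC and 2.15% in NSC. The difference of -0.582 points did not pass the test (exact permutation p = 0.181, adjusted 0.181), and the ESC library with the fewest distant UMIs had 4 UMIs there.

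**Figure D5:**
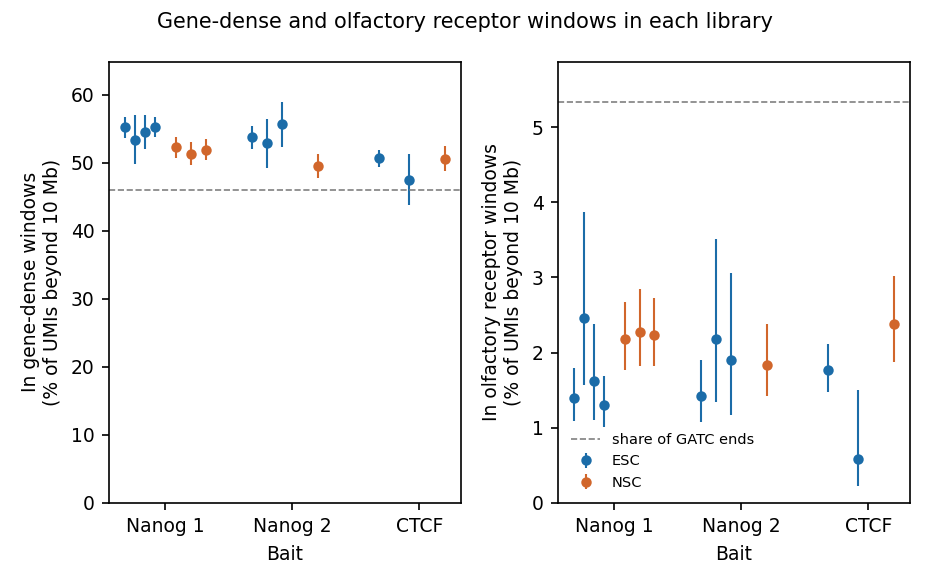
Percent of the UMIs beyond 10 Mb (y axes) in gene-dense windows (left) and olfactory receptor windows (right) for each library by bait (x axis), ESC in blue and NSC in orange, with 95% Wilson intervals; the dashed line is the share of GATC ends. All 14 libraries lie above the line on the left and below it on the right. The whole stretch up to 44.6 Mb around the olfactory windows, which is not plotted, was also below its share of ends.

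Contacts around the starts of 19 listed genes, all beyond 10 Mb, were described by the density within 500 kb of the start relative to the distant mean. Of all 978 protein-coding genes beyond 10 Mb, 19.3% were denser in ESC and 37.5% in NSC in all 3 baits, and the median density was 0.883 in ESC and 0.990 in NSC. Neighbouring genes share UMIs, so the counts are not independent.

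Of 5 genes active in ESC or early embryos, 1 was denser in ESC in all 3 baits, none in NSC, and 4 differed in direction between baits. The median density was 2.42 in ESC and 2.27 in NSC. The gene was Khdc3, a component of the maternal complex of oocytes and early embryos, at 2.15 in ESC and 1.40 in NSC. Its ESC samples ran from 1.77 to 3.17 and its NSC samples from 1.31 to 1.52, without overlap. Dppa5a, an RNA-binding protein of pluripotent cells, and Ooep, another member of the maternal complex, lie 10.5 kb apart and shared nearly all UMIs. Both were at 2.41 to 2.42 in ESC and 2.27 to 2.30 in NSC. Tdgf1, a co-receptor of Nodal, was at 2.62 and 2.64, and Trim71 at 2.45 and 2.11.

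Of 8 neural genes, 4 were denser in NSC in all 3 baits and none in ESC. The median was 0.873 in ESC and 0.990 in NSC. Opcml was at 0.336 in ESC and 0.929 in NSC, from 202 UMIs in the 14 libraries, and its samples overlapped for Nanog bait 1. Ntm was at 0.323 and 0.818, from 215 UMIs, with every NSC sample above every ESC sample. Both totals count averaged libraries separately. ESC replicates 2 and 3 of Nanog bait 2 and ESC replicate 2 of the CTCF bait had 1, 2 and 2 UMIs at Opcml. At Ntm they had 2, 3 and 1. Robo3, an axon guidance receptor, was at 0.692 and 1.11, and Ncam1, the neural cell adhesion molecule, at 0.859 and 1.08, where the samples overlapped for 1 bait. The other 4 differed in direction between baits: Drd2, a dopamine receptor, at 0.887 and 0.940, Rora at 1.18 and 1.04, Htr1b, a serotonin receptor, at 0.937 and 0.689, and Cck, the neuropeptide cholecystokinin, at 1.93 and 1.69. Opcml, Ntm and Robo3 start below 44.6 Mb, where 18 of 21 windows of 2 Mb held a larger share of distant UMIs in NSC in the means of all 3 baits. Rora, Htr1b and Cck lie nearer the baits than these and Ncam1. Whether neural genes differ from others at the same position was not tested.

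Of 6 genes that most cells use, 4 were denser in NSC and 2 in ESC in the means of all 3 baits. The samples did not overlap in any bait for Dnmt1 and Smarca4, but they overlapped in 1 bait for Kmt2a, Atm and Ctnnb1 and in 2 baits for Chek1. The 4 lie nearer the centromere than the other two. Dnmt1, the maintenance DNA methyltransferase, and Smarca4, a chromatin remodeller, lie near 21 Mb and were at 0.534 and 0.511 in ESC and at 0.990 and 0.886 in NSC. Chek1, a checkpoint kinase, and Kmt2a, a histone methyltransferase, were at 0.501 and 0.706 in ESC and at 0.735 and 0.964 in NSC. Atm, the kinase that responds to DNA breaks, was at 1.24 in ESC and 0.882 in NSC. Ctnnb1, which encodes beta-catenin, lies on the telomeric side and was at 2.04 in ESC and 1.67 in NSC.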

How the data were processed

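Per the labels, nuclei were fixed, UMI-4C libraries were made and pooled, and they were sequenced on a HiSeq instrument; the submitters' processing notes name mm10 and Bowtie2. The authors deposited 1 table per library with raw counts, whole numbers of UMIs per pair of fragment ends, not normalised. The rule for collapsing UMIs and the filters are not given in the sources used here. Groups and replicate numbers came from the sample titles.

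Listed distant ends lay at GATC sites of GRCm38 in 100% of cases. Genes were taken from GENCODE vM21. The members, gene lists and limits were chosen with earlier results of these data known. Of the genes listed as used by most cells, 1 is not reported here. UMIs closer than 10 kb to the bait were not counted. Libraries that shared over 50% of their ends on other chromosomes were averaged, and those that shared over 1% were called linked. The densities were not corrected for mappability.

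Libraries held 4710 to 38704 chromosome 9 UMIs outside 10 kb, at which 3 UMIs make 0.00775% to 0.0637%. Intervals are 95% Wilson intervals; they and these floors cover counting error only. Shares were compared by two-sided exact permutation of cell type within baits (Python 3.11, scipy), with Benjamini-Hochberg adjustment over 5 shares. Counts in 2 Mb windows with at least 10 UMIs (61 windows, averaged counts rounded) were tested in edgeR 4.0.16 (limma 3.58.1, R 4.3.3) with bait and cell type as terms and Benjamini-Hochberg adjustment, and in DESeq2 1.42.0. Tested on simulated data of the comparison of all baits, with 10 of 61 windows changed by 2-fold, 9 were recovered and 0 unchanged windows were called. The simulated counts were drawn independently, with the same fixed spread for all windows and without links between samples. They do not measure the error rate or power in the real data. Named windows were the 5 largest changes in each direction past the threshold, the 5 densest of each cell type, and those at the borders and ends; the 5 largest towards ESC relative to distant UMIs were added after their values were seen, as no window passed in that direction. Alternatives were the window width, filter, library size, tool, counting each end once, repeat and linked libraries, shared ends, denominators, borders and leaving out each library.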

Additional observations from a re-analysis of the deposited data

Results flagged for a closer look

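The difference between cell types turned with the bait when distant contacts were taken as a share of the chromosome 9 UMIs beyond 1 Mb. ESC minus NSC was -3.29 points for Nanog bait 1 and -1.76 points for Nanog bait 2, but 3.84 points for the CTCF bait. In each bait every ESC sample lay on the same side of every NSC sample. The difference between baits was not tested, and both the Nanog bait 2 and the CTCF comparison rest on 1 NSC library.

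Pairs of fragment ends that do not include the bait end also reached beyond 10 Mb. They held 448 UMIs there in the Nanog bait 1 libraries, 32 in the Nanog bait 2 libraries and 7 in the CTCF bait libraries. They entered no comparison.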

How the results depend on the processing

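Shares are judged here by the unadjusted exact permutation p at 0.05. The telomeric share and the share beyond 30 Mb kept their direction under every alternative run, with differences of 4.89 to 5.78 points and -8.91 to -7.14 points when libraries were left out in turn. Their tests no longer passed where the design could not reach the threshold, which gave, with the replicate block and with linked libraries only, 5.26 and 5.40 points for the telomeric share and -6.75 and -6.90 points beyond 30 Mb, and without the NSC library of Nanog bait 2, 5.78 and -8.62 points. Same-numbered samples did not deviate together (r = 0.00971, -0.0143 and -0.160 for replicates 1, 2 and 3), and the numbers were not taken as a pairing. These correlations do not exclude a pairing. ESC and NSC replicate 1 shared 12.3%, 12.9% and 8.37% of their ends on other chromosomes for Nanog bait 1, Nanog bait 2 and the CTCF bait. The share of all distant contacts, whose adjusted p of 0.0694 already missed 0.05, depended on the processing: its unadjusted p no longer passed, at -5.08 points with each end counted once, -7.91 with the replicate block, -6.42 with linked libraries only, -6.11 without ends shared with the other cell type, -0.404 outside 1 Mb and -2.66 with other chromosomes in the denominator, and ran from -9.27 to -6.50 when libraries were left out. It also no longer passed without NSC replicate 2 of Nanog bait 1 (-6.97, exact permutation p = 0.0833) or without the NSC library of Nanog bait 2 (-7.36, exact permutation p = 0.111, where 18 labelings cannot reach 0.05), nor can the replicate block or linked libraries only reach it. The gene-dense difference ran from 0.656 to 3.71 points without single libraries (it passed without ESC replicate 2, 2.48 points, or NSC replicate 1, 3.71 points, of the CTCF bait), was 2.53 without olfactory receptors and 2.29 with a split by GC, and turned to -0.469 with 2 Mb windows. The olfactory difference stayed below 0 throughout. Of distant windows, 25 were called in all baits, 11 of 21 with 5 Mb windows, 5 with each end counted once, and 13 to 26 without single libraries; the replicate block gave 22, and linked libraries as a block, chosen after seeing the data, 19. For Nanog bait 1, 12 were called, 4 with 5 Mb windows, 1 by DESeq2, 2 with each end counted once, 27 with all libraries as replicates, 28 with the replicate block, 21 without shared ends, 0 with linked libraries as a block (edgeR, 13 at an unadjusted p under 0.05) and 0 to 14 without single libraries. With UMIs beyond 10 Mb as library size, 7 windows turned from below to above 0 and past the threshold, 5 of them named in the text. For these, with TMM factors, UMIs beyond 10 Mb as library size, DESeq2, and that library size with linked libraries as a block, the log2 fold change was 0.41, 0.43, 0.43 and 0.40 at 114.6 Mb, 0.25, 0.27, 0.27 and 0.28 at 118.6 Mb, 0.36, 0.39, 0.39 and 0.41 at 68.6 Mb, and 0.33, 0.36, 0.37 and 0.31 at 72.6 Mb, and with the first 3 it was 0.31, 0.34 and 0.36 at 64.6 Mb. The window at 64.6 Mb turned past the threshold in the first 3 settings only. With the fourth, 22 of the 24 windows called at that library size stayed past the threshold. The cause of the turn was not tested. Depth limits single ends, nearly all of which carry 1 UMI, and windows of the shallow ESC libraries.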
